A study of Bos taurus with 2 samples.

Results

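The 7 genes HMGCS1, FDPS, SQLE, LSS, SC4MOL, TM7SF2 and DHCR7 encode enzymes of cholesterol synthesis. They were taken by symbol from the 24616 genes of the deposited tables, with earlier results of these data known. How far they stand from other genes is therefore a description and not an independent result. Each symbol had 1 Ensembl identifier, and all 7 had counts in both libraries. RNA sequencing had been done on seminiferous tubules, the coiled tubes of the bovine testis in which sperm develop, of 2 calves, the older aged 9 months and the younger 3 months. The calves differed in age by their labels, with no treatment, strain or genotype given, and each age was represented by 1 library, made from flash-frozen pieces of tubule cut from a removed testis. No difference below therefore has a replicate check, and "at 9 months" and "at 3 months" stand for these 2 libraries rather than for the ages in general.

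Cells build cholesterol from acetyl-CoA. The mevalonate steps lead to farnesyl diphosphate and squalene, and the sterol steps close the rings as lanosterol and trim it to cholesterol. When membranes hold little cholesterol, the transcription factor SREBP2 is cut free and switches on most genes of the route. In the testis, Leydig cells between the tubules turn cholesterol into androgens, Sertoli and germ cells need it for membranes, and intermediates just after lanosterol have been described as meiosis-activating sterols.

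All 7 genes were lower in the 9-month library. The difference ran from 3.51-fold for FDPS to 45.5-fold for TM7SF2. Together the 7 genes took 403.4 of every 1000000 counts at 9 months (exact binomial 95% bounds 396.2 and 410.7) and 2777 at 3 months (2760 and 2794). Of 18025 measured genes, defined as genes with at least 10 counts over both libraries, 22.8% were at least 2-fold lower, as were all 7, and 28.0% were at least 2-fold higher. With plain library totals these shares were 14.7% and 36.2%. A difference of at least 4-fold downwards was found for 8.57% of measured genes and 6 of the 7, and one of at least 16-fold for 0.705% and 3 of the 7. The median log2 ratio of the 7 genes was -3.90, against 0.02 over all measured genes. The libraries held 29782234 counts at 9 months and 37600534 counts at 3 months. Folds are ratios of counts scaled by TMM, the trimmed mean of M values, with their 95% exact counting interval in brackets, which covers counting error only. RPKM, the deposited level per kilobase of gene and per 1000000 counts, is relative to plain totals. Ratios of printed RPKM, 9-month over 3-month, are therefore higher than those of TMM-scaled counts. For genes lower at 9 months they give a smaller fold, and for genes higher at 9 months a larger one.

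HMGCS1 (ENSBTAG00000011839) makes HMG-CoA, an early intermediate from which mevalonate is formed. It had 2280 counts, or 36.1 RPKM, at 9 months against 31368 counts, or 393 RPKM, at 3 months. It was 14.9-fold lower [14.3 to 15.6], the 110th lowest log2 ratio of all measured genes.

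FDPS (ENSBTAG00000003948) joins isoprene units into farnesyl diphosphate, the branch point between sterols, coenzyme Q, dolichol and protein prenylation. It had 4388 counts, or 40.8 RPKM, at 9 months against 14200 counts, or 104 RPKM, at 3 months. It was 3.51-fold lower [3.39 to 3.63], the smallest difference of the 7. In the order of RPKM FDPS had the highest level of the 7 at 9 months, and SC4MOL, HMGCS1 and SQLE stood above it at 3 months.

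SQLE (ENSBTAG00000005498) oxidises squalene and is held to be a rate-limiting step of the sterol part. It had 2104 counts, or 32.8 RPKM, at 9 months against 10933 counts, or 135 RPKM, at 3 months. It was 5.63-fold lower [5.37 to 5.90]. LSS (ENSBTAG00000018936) closes the rings to lanosterol. It had 1029 counts, or 8.13 RPKM, at 9 months against 6830 counts, or 42.7 RPKM, at 3 months, and was 7.19-fold lower [6.74 to 7.69]. These are consecutive steps, and their balance differed beyond counting error, with SQLE at 4.04 times the RPKM of LSS in the 9-month library [3.74 to 4.35] and 3.16 times in the 3-month library [3.07 to 3.26].

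SC4MOL (ENSBTAG00000003068), also named MSMO1, starts the removal of the paired methyl groups of lanosterol. It had 1639 counts, or 30.4 RPKM, at 9 months against 27632 counts, or 406 RPKM, at 3 months. It was 18.3-fold lower [17.4 to 19.2]. It had the highest RPKM of the 7 genes at 3 months, and FDPS, HMGCS1 and SQLE stood above it at 9 months.

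TM7SF2 (ENSBTAG00000005069) is a sterol reductase that removes the double bond left when lanosterol loses its other methyl group. It had 65 counts, or 1.33 RPKM, at 9 months against 2731 counts, or 44.2 RPKM, at 3 months. It was 45.5-fold lower [35.6 to 59.2], the 17th lowest log2 ratio of all measured genes. DHCR7 (ENSBTAG00000016465), a related reductase of the last steps, had 510 counts, or 6.01 RPKM, at 9 months against 10723 counts, or 100.1 RPKM, at 3 months. It was 22.8-fold lower [20.85 to 24.95] and had the 56th lowest log2 ratio.

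**Figure D1:**
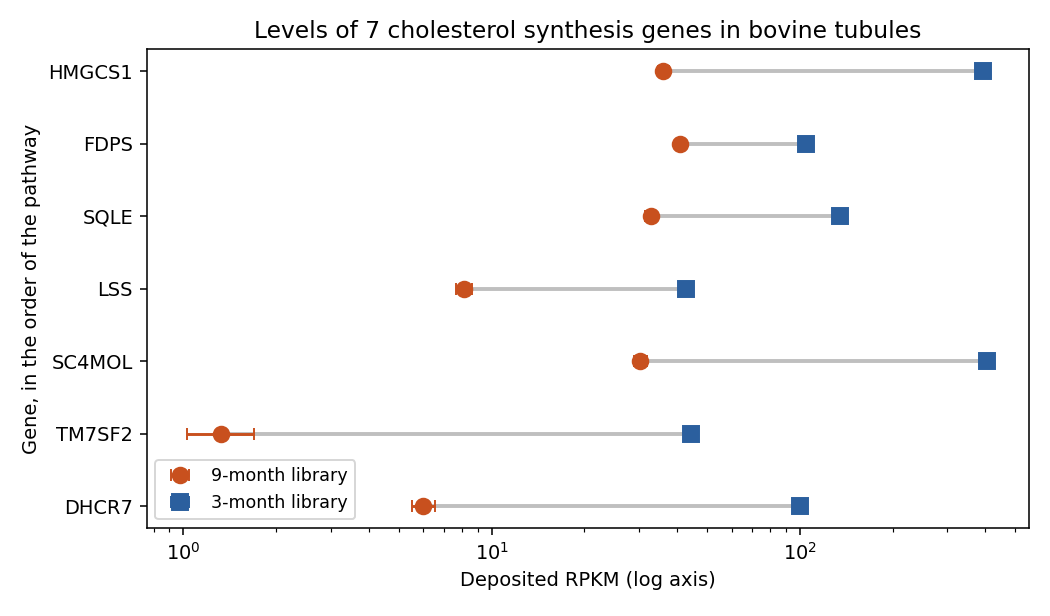
Deposited RPKM on a log axis for each gene, in pathway order from top to bottom, in the 9-month library (circles) and the 3-month library (squares); bars are 95% exact Poisson intervals and are mostly hidden by the points. Every circle lies left of its square, with the widest gap at TM7SF2 (1.33 RPKM at 9 months against 44.2 RPKM at 3 months) and the narrowest at FDPS (40.8 RPKM at 9 months against 104 RPKM at 3 months).

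The 7 genes did not keep the same proportions. Ordered by fold, TM7SF2 was followed by DHCR7, SC4MOL, HMGCS1, LSS, SQLE and FDPS, and no interval overlapped its neighbour's. In the 9-month library FDPS, HMGCS1, SQLE and SC4MOL lay close together between 40.8 and 30.4 RPKM, while LSS, DHCR7 and TM7SF2 lay at 8.13 RPKM and below. In the 3-month library SC4MOL and HMGCS1 stood 2.91-fold or more above the rest. The highest of the 7 exceeded the lowest 30.7-fold at 9 months and 9.49-fold at 3 months. In both libraries neighbours in this order differed beyond counting error, apart from TM7SF2 and LSS at 3 months (44.2 and 42.7 RPKM, ratio 1.03 [0.989 to 1.08]).

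TM7SF2 shares its reaction with LBR, an inner nuclear membrane protein that also binds lamin B and is a sterol reductase of the same kind. LBR was the one enzyme gene of the pathway that was higher, with 2882 counts, or 47.6 RPKM, at 9 months against 874 counts, or 11.4 RPKM, at 3 months. It was 3.04-fold higher [2.82 to 3.29]. Within the 9-month library TM7SF2 stood at 0.0279 times the RPKM of LBR [0.0215 to 0.0357], and within the 3-month library at 3.87 times [3.58 to 4.18]. The reductase with more transcript was therefore LBR at 9 months and TM7SF2 at 3 months, a comparison inside each library that needs no scaling between them.

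Other enzymes were set beside the 7 from lists of the remaining steps. All 7 measured genes of the other mevalonate steps had ratios below 1, 6 were at least 2-fold lower, and the median log2 ratio was -2.49. IDI1, which isomerises the isoprene unit, was 7.46-fold lower [6.996 to 7.96]. ACAT2, which joins acetyl-CoA units ahead of HMGCS1, was 5.73-fold lower [5.39 to 6.11]. The kinases MVK and PMVK were 4.04-fold [3.69 to 4.43] and 5.69-fold lower [4.83 to 6.73], and the decarboxylase MVD was 5.83-fold lower [5.25 to 6.48]. FDFT1, which makes squalene from the product of FDPS, stood at 108 RPKM at 9 months against 137 RPKM at 3 months, a 1.73-fold difference [1.68 to 1.78] that lay within 2-fold.

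Of 8 genes of the other sterol steps 7 were lower and LBR was higher, and the median log2 ratio was -2.68. NSDHL and HSD17B7, which work after SC4MOL in the removal of the methyl groups, were 8.82-fold [8.11 to 9.60] and 7.91-fold lower [6.81 to 9.23]. ERG28, counted here with the enzyme genes though not itself an enzyme, was 4.26-fold lower [3.86 to 4.71]. EBP, which shifts a double bond in the ring, was 8.01-fold lower [6.79 to 9.50] and SC5DL, which acts just before DHCR7, 8.22-fold [7.51 to 9.00]. CYP51A1, the lanosterol demethylase, was 3.73-fold lower [3.59 to 3.88]. Over all 22 enzyme genes 20 were lower, against 22.8% of all measured genes, and the median log2 ratio was -2.53. The 4 lowest of the 22 log2 ratios were those of TM7SF2, DHCR7, SC4MOL and HMGCS1. As the 7 genes were chosen with earlier results of these data known, that place among the 22 can follow from the choice.

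**Figure D2:**
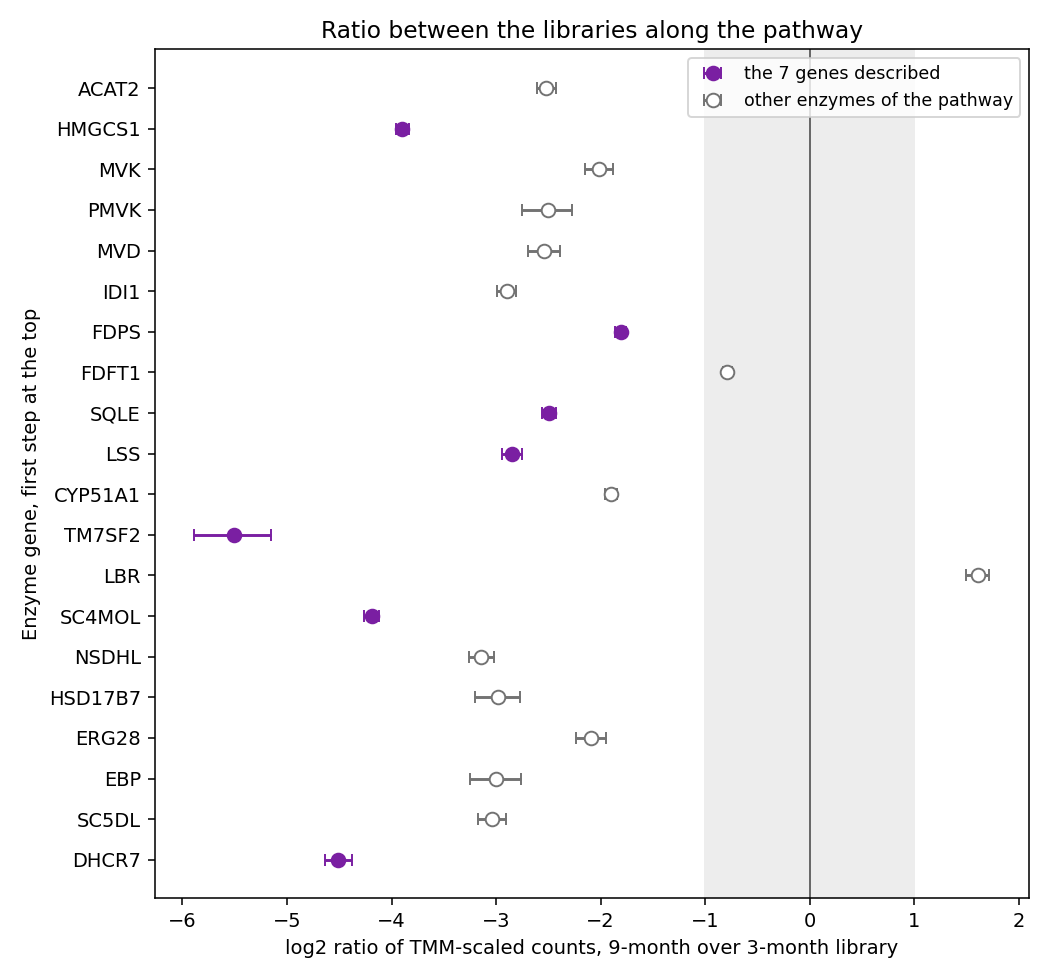
Log2 ratio of TMM-scaled counts, 9-month over 3-month library, for 20 enzyme genes from the first step at the top to the last at the bottom; filled points are the 7 genes described, open points the other enzymes, bars 95% exact counting intervals, and the grey band marks less than 2-fold. LBR alone lies to the right of the band, FDFT1 lies inside it, and TM7SF2 lies farthest to the left, directly above LBR.

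Ratios of genes within a library compare steps free of scaling between libraries, and a ratio's direction follows from which gene is on top. HMGCS1 had 0.885 times the RPKM of FDPS in the 9-month library [0.841 to 0.931] and 3.76 times in the 3-month library [3.69 to 3.84]. SC4MOL had 3.23 times the RPKM of NSDHL in the 9-month library [2.94 to 3.55] and 6.69 times in the 3-month library [6.49 to 6.90]. FDFT1 had 2.66 times the RPKM of FDPS in the 9-month library [2.56 to 2.76] and 1.31 times in the 3-month library [1.28 to 1.34]. CYP51A1 had 4.94 times the RPKM of LSS in the 9-month library [4.61 to 5.31] and 2.56 times in the 3-month library [2.49 to 2.64].

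**Figure D3:**
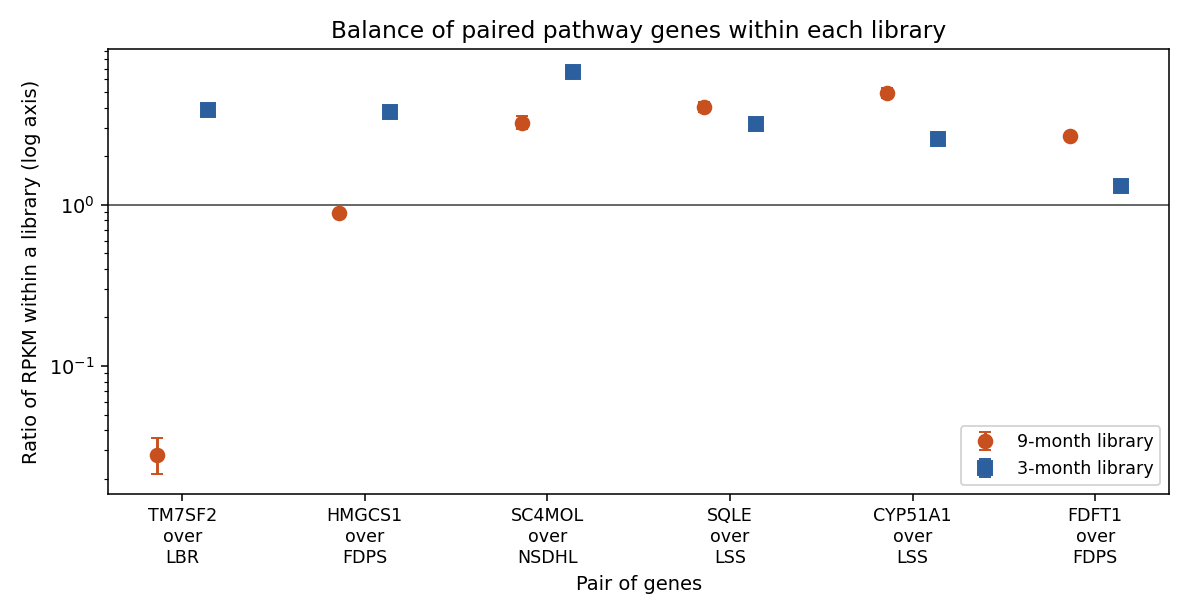
Ratio of the RPKM of paired pathway genes within each library on a log axis, with the 9-month library (circles) left of the 3-month library (squares) in each pair; bars are 95% exact counting intervals. TM7SF2 over LBR lies at 0.0279 for 9 months and 3.87 for 3 months, on either side of the line at 1, and HMGCS1 over FDPS lies at 0.885 for 9 months and 3.76 for 3 months.

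Of 8 genes of the branches that leave the pathway at farnesyl diphosphate 1 was higher, 2 were lower (1 with plain library totals) and 5 lay within 2-fold, and the median log2 ratio was 0.44. Of all measured genes 28.0% were higher, 22.8% lower and 49.2% within 2-fold, so these counts lie near the background. FNTA, a subunit shared by the enzymes that attach prenyl groups to proteins, was 2.51-fold higher [2.403 to 2.62]. COQ2, of coenzyme Q synthesis, was 3.96-fold lower [3.63 to 4.33]. GGPS1, which extends farnesyl to geranylgeranyl diphosphate, stood at 24.5 RPKM at 9 months against 13.4 RPKM at 3 months, within 2-fold. FDPS had 1.66 times the RPKM of GGPS1 in the 9-month library [1.55 to 1.78] and 7.79 times in the 3-month library [7.22 to 8.41].

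Of 7 genes of the SREBP system, which controls the enzyme genes, 3 were lower and 4 lay within 2-fold, and the median log2 ratio was -0.72. The shares over all measured genes were 22.8% lower and 49.2% within 2-fold. SREBF2, which encodes SREBP2, had 2224 counts, or 21.4 RPKM, at 9 months against 3378 counts, or 25.8 RPKM, at 3 months, a 1.65-fold difference [1.56 to 1.74]. SREBF1, which encodes the relative that acts mainly on fatty acid genes, stood at 28.1 RPKM at 9 months against 22.1 RPKM at 3 months. With TMM scaling its direction was the opposite, 1.075-fold lower at 9 months [1.02 to 1.13], within 2-fold. INSIG1, itself an SREBP target, which holds the precursor in the endoplasmic reticulum, was 3.06-fold lower [2.87 to 3.26]. The proteases MBTPS1 and MBTPS2, which cut the precursor, were 3.32-fold [3.18 to 3.47] and 3.60-fold lower [3.08 to 4.22]. Of 5 measured fatty acid genes under SREBP 3 were lower, against 22.8% of all measured genes, and the median log2 ratio was -1.03. The ATP-citrate lyase gene ACLY, which supplies acetyl-CoA to both routes, was 4.15-fold lower [3.996 to 4.31]. The fatty acid synthase gene FASN was 2.04-fold lower [1.99 to 2.10], but 1.49-fold lower with plain library totals, under which 1 of the 5 was lower.

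Among 12 measured genes of uptake and intracellular transport 4 were lower, 1 was higher (3 with plain library totals) and 7 lay within 2-fold, and the median log2 ratio was -0.57. The shares over all measured genes were 22.8% lower, 28.0% higher and 49.2% within 2-fold. SCARB1, the receptor that takes cholesteryl esters from high-density lipoprotein, had 2014 counts, or 26.2 RPKM, at 9 months against 37990 counts, or 392 RPKM, at 3 months, and was 20.4-fold lower [19.6 to 21.4]. NPC2, which hands cholesterol on inside lysosomes, was 5.88-fold lower [5.63 to 6.16], and the lysosomal acid lipase gene LIPA 4.69-fold [4.29 to 5.14]. The receptor gene VLDLR was 2.26-fold higher [1.97 to 2.61].

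Of 9 genes of esterification, storage and efflux 4 were lower, 3 were higher and 2 lay within 2-fold, and the median log2 ratio was -0.69. These counts stand beside 22.8% lower, 28.0% higher and 49.2% within 2-fold over all measured genes. The efflux transporter ABCA1 was 2.36-fold higher [2.17 to 2.58], and LIPE, listed under the synonym HSL, was 5.97-fold higher [5.22 to 6.84]. It encodes a lipase that frees cholesterol and fatty acids from their esters. NCEH1, another cholesteryl ester hydrolase, was 3.64-fold lower [3.03 to 4.39], and NR1H3, a nuclear receptor that senses oxysterols, 3.03-fold lower [2.67 to 3.44].

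Cell type markers differed between the libraries in both directions, and their part in the result was not tested. Over all measured genes 22.8% were lower, 28.0% were higher and 49.2% lay within 2-fold. Of 11 measured genes of Leydig cells and steroid synthesis 9 were lower, 1 was higher and 1 lay within 2-fold, and the median log2 ratio was -2.69. Their summed expression was 2874 CPM at 9 months against 18218 CPM at 3 months, where CPM is the count per 1000000 of the TMM-scaled library size. No gene of that list was at 0 in either library, although the tissue was labelled as tubule and Leydig cells lie outside it. STAR, whose protein moves cholesterol to the inner mitochondrial membrane, was 24.6-fold lower [24.1 to 25.1], CYP11A1, which cuts its side chain, 24.1-fold [22.7 to 25.6], and INSL3, a peptide hormone of Leydig cells, 3.09-fold [3.07 to 3.12]. The folds of 6 of the 7 described genes lay between those of INSL3 and STAR, and that of TM7SF2 lay above. That range was wide, and what it means for the cell of origin was not tested. CYB5A, 1.59-fold lower, and HSD17B3, 8.13-fold higher, both of the Leydig list, fell outside it. Of the Sertoli markers CLU, FSHR and INHA, 3.48-fold, 6.38-fold and 10.5-fold lower, fell inside it. AMH, 34.8-fold lower, lay above it, and the other Sertoli markers lay below it or had ratios above 1. STAR had 3.26 times the RPKM of HMGCS1 in the 9-month library [3.11 to 3.41] and 5.37 times in the 3-month library [5.30 to 5.43].

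Markers of Sertoli cells, the somatic cells inside the tubule, were lower for 6 of 12, higher for 2 and within 2-fold for 4. Their median log2 ratio was -0.96, and none was at 0. Their sum was 2273 CPM at 9 months against 8852 CPM at 3 months. With plain library totals 5 of these markers were lower, 3 were higher and 4 lay within 2-fold. The follicle-stimulating hormone receptor gene FSHR was 6.38-fold lower [5.96 to 6.83] and AMH, a hormone of immature Sertoli cells, 34.8-fold [32.9 to 36.9]. CLDN11, a tight junction protein between Sertoli cells, had 11124 counts at 9 months against 207 at 3 months and was 49.6-fold higher [43.2 to 57.2], and DMRT1, a transcription factor, was 2.34-fold higher [2.22 to 2.47]. All 11 measured markers of meiotic and later germ cells were higher, with a sum of 3343 CPM at 9 months against 31.2 CPM at 3 months, and ODF1 was at 0 at 3 months. Of 8 spermatogonial markers 4 were higher (6 with plain library totals) and 4 lay within 2-fold. The sums of these 8 were 837 CPM at 9 months against 175.5 CPM at 3 months. Of 8 macrophage markers 4 were lower (2 with plain library totals), 1 was higher and 3 lay within 2-fold, with sums of 240.2 CPM at 9 months against 466.5 CPM at 3 months. The adipocyte hormone ADIPOQ had 8 counts at 9 months against 7 at 3 months. In bulk tissue, fewer cells of a type and less RNA per cell cannot be told apart.

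Annotated neighbours were compared with the 7 genes because the strand setting of the counting is not given. In the RefSeq annotation of assembly ARS-UCD2.0, which is not the build of the files and was used only for neighbourhood, VPS51 and ZNHIT2 flank TM7SF2. VPS51, of a vesicle tethering complex, had 1184 counts at 9 months against 1236 at 3 months and was 1.13-fold lower. ZNHIT2 had 797 counts at 9 months against 231 at 3 months and was 3.18-fold higher, while TM7SF2 between them was 45.5-fold lower. NIM1K, a kinase gene beside HMGCS1, had 280 counts at 9 months against 30 at 3 months and was 8.61-fold higher. NADSYN1, the neighbour of DHCR7, which makes NAD, was 3.42-fold lower. LSS overlaps an annotated non-coding RNA, LOC132346253, any reads of which cannot be told apart from those of LSS without strand. RUSC1, the neighbour of FDPS, was not analysed here.

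The genes nearest to each of the 7 in log2 RPKM over the 2 libraries came from varied functions, and likeness over 2 values says little. For SQLE the nearest was the laminin gene LAMB1, at 32.4 RPKM at 9 months against 135 RPKM at 3 months, 0.02 log2 units away. For FDPS it was NDUFB11, of the respiratory chain, at 0.06, for LSS CPXM at 0.03, and for TM7SF2 CAPN6, of the calpain family, at 0.11. DHCR7 had MS4A8B at 0.30. HMGCS1 and SC4MOL had the same nearest pair, COL4A1, a collagen of basement membranes, and GSTA5, of the glutathione transferases, at 0.39 to 0.60 log2 units.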

How the data were processed

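RNA was extracted with a column kit from flash-frozen tubule pieces, per the labels' protocols. Trimmomatic 0.33, STAR 2.4.0 and build UMD3.1 are named in the submitters' processing notes; the counting program, annotation release and strand setting were not given in those notes or labels. The deposited tables have no header, so units were read from the values. The authors deposited raw counts per gene, the gene length in bases, and RPKM, which equals the count per kilobase and per 1000000 of the table's total within 0.000496%. No column belonged to other samples.

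The 2 libraries were grouped by the age label. Counts were scaled by TMM in edgeR 4.0.16 (R 4.3.3) over the 18025 genes with at least 10 counts, giving factors of 1.17 for the 9-month and 0.855 for the 3-month library. Depth was 29782234 counts at 9 months and 37600534 at 3 months. Log2 ratios, 9-month over 3-month, carry a prior count of 2. Folds have 95% conditional binomial (Clopper-Pearson) intervals and shares exact binomial ones; both cover counting error only and may be too narrow, as amplified reads are not always separate molecules. A gene was called higher or lower when at least 2-fold different with an interval that left out 1. Against 0 counts the fold was taken with a floor of 3 counts in place of 0. With 1 library per age no p-value is given. The procedure was tested on simulated data in which few genes differed and only counting error was drawn. That test does not check the scaling for libraries as unlike as these. Tables and figures were made with scipy 1.17.1, pandas 2.3.3, numpy 2.4.6 and matplotlib 3.10.9 under Python 3.11.15.

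The members and the lists were chosen with earlier results of these data known. Of 140 list entries 136 were found in the tables, 1 by another symbol and 4 through RefSeq synonyms. Named were the 7 genes, all other enzymes, selected extremes of the further lists (up to 4 per list, at 5 CPM or more in either library, and the largest in the opposite direction), 12 regulators and markers such as SREBF2, INSIG1 and STAR whatever their values, and the 2 genes nearest each member in log2 RPKM; genes the rule takes that are not printed are in the counts, and values of some pathway genes are not reported here. No promoter or protein sequences were used here. Alternatives were other scalings (DESeq2 1.42.0 size factors, plain totals, upper quartile, reference genes, mitochondrial genes left out), prior counts of 0.5 and 10, minimum counts of 1 and 50, and thresholds of 1.5-fold and 4-fold.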

Additional observations from a re-analysis of the deposited data

How the results depend on the processing

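All 7 genes were called lower under each of the 11 alternatives run, except FDPS with the 4-fold threshold. All 77 of their log2 ratios under them were negative, 58 within the counting interval of the value reported. The other thresholds and minimum counts leave a log2 ratio unchanged, so their part of the 77 and of the 58 was fixed in advance. Each scaling shifts the log2 ratios of all genes alike and cannot change their order. Against TMM, they shifted by 0.45 with plain library totals, 0.35 with reference genes, 0.02 with DESeq2 size factors and -0.10 with upper-quartile scaling. The median of the 7 genes was -3.44, -3.55 and -4.00 with plain totals, reference genes and upper-quartile scaling, and that of the 22 enzymes was -2.08, -2.18 and -2.63. The folds of the 7 then ran from 2.56 to 33.3 with plain totals, where 14.7% of all measured genes were at least 2-fold lower, and from 3.77 to 48.9 with upper-quartile scaling, where 24.9% were. With plain totals and with reference genes 19 of the 22 enzymes were lower, and SCAP, the SREBP escort protein, was 2.16-fold and 2.01-fold higher instead of within 2-fold. The 14 reference genes themselves had a median log2 ratio of -0.55 under TMM, with 5 lower and 9 within 2-fold. With a 4-fold threshold 0 regulators and 0 genes of esterification, storage and efflux were lower, against 3 and 4 with a 2-fold one. SOAT2 had 0 counts at 9 months against 10 at 3 months and was 3.61-fold lower against a floor of 3 counts. The bound of its counting interval was 2.43-fold lower. No paired analysis was possible because each age had 1 library. Depth limits TM7SF2 most, with 65 counts at 9 months.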

Other observations

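Other genes of lipid handling differed in both directions. BDH1, a mitochondrial enzyme that interconverts ketone bodies, had 1327 counts at 9 months against 23 at 3 months and was 53.2-fold higher [35.3 to 84.3]. CIDEC, a lipid droplet protein, had 342 counts at 9 months against 0 at 3 months and was 105-fold higher against a floor of 3 counts. The bound of its counting interval was 85.1-fold higher. PLIN1, a coat protein of lipid droplets listed under PLIN, was 3.47-fold higher [2.88 to 4.21]. LPL, the lipase that frees fatty acids from lipoproteins, had 311 counts at 9 months against 9728 at 3 months and was 33.9-fold lower [30.3 to 38.1]. The last 3 had been listed as adipocyte markers. Of 5 measured genes of that list 2 were higher (3 with plain library totals), 1 was lower and 2 lay within 2-fold. The list summed to 35.2 CPM at 9 months against 308 CPM at 3 months. LPL alone made up 8.93 CPM at 9 months against 303 CPM at 3 months, and the other 4 genes summed to 26.3 CPM at 9 months against 5.07 CPM at 3 months, the opposite direction.

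HSD17B3, which makes testosterone from its precursor, was the one gene of the Leydig list that was higher, 8.13-fold [6.42 to 10.4], with 687 counts at 9 months against 78 at 3 months. LHCGR, the receptor for luteinising hormone, was 15.05-fold lower [13.8 to 16.4], close in fold to HMGCS1.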
